A study of Mus musculus with 9 samples.

Results

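Genes named Zfp and a number encode zinc finger proteins, most of them with a row of C2H2 fingers, small loops folded around a zinc ion that read DNA, and some of which bind RNA or other proteins. The members were the genes that were the only symbol of a probe set on the array, had a symbol of Zfp followed by a digit, and reached a log2 level of 5 on 2 or more of the 9 arrays. The probe set of highest mean stood for a gene. There were 270 such genes of 10864 genes that passed the same filter, while 66 further Zfp symbols of 336 on the array did not pass it. At the edge of that filter, the second-highest readings of Zfp235 and Zfp13 were 5.03 and 5.03, and those of Zfp784 and Zfp36, just outside it, were 4.92 and 4.82. Zinc finger genes with other names (Zbtb, Zscan, Sall and the like) were not members.

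The RNA came from the olfactory bulb, where signals from the nose first reach the brain, of CD1 mice without any stated treatment or genotype change. Embryos of E11, E12, E13, E14, E15, E16, E17 and E18 and a pup of the day of birth, postnatal day 0 (P0), gave 1 array each, from 1 animal each. No age had a replicate, so the error of every trend is the scatter of the 9 arrays around it. Levels are log2 values, in which 1 unit is a 2-fold difference. As a check of the tissue, Tbx21, which marks the projection neurons of the bulb, read 2.40 at E11 and 9.28 at P0, Gad1 of its inhibitory neurons 10.76 and 13.13, and Tbr1 11.57 and 10.29.

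Many Zfp proteins carry a KRAB domain at one end, which recruits the corepressor Trim28 and with it the methyltransferase Setdb1, the HP1 proteins and DNA methyltransferases, to silence retroelements and to protect imprints. Others belong to small families with set roles in brain development, such as Zfp423 and Zfp521, large proteins that bind Ebf factors, or in the decay of messenger RNA, such as the Zfp36 family. Because the KRAB genes arose by tandem duplication, many lie beside each other and resemble one another in sequence, and their probes are more open to cross-hybridisation than those of single-copy genes. The probe set used is marked as one that may match several transcripts in 6 of the 71 members with a linear trend and in 28 of the 199 others.

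Most Zfp genes had no linear trend from E11 to P0 that passed the test. Of the 270 members, 199 passed no test of a linear trend on age, 53 fell and 18 rose, 71 in all (26.3%, beside 47.2% of all genes) (limma, Benjamini-Hochberg adjusted p under 0.05 over all genes, with P0 taken as day 19). Falling members made up 19.6% of the members, and 21.9% of all genes tested fell. Rising members made up 6.67%, and 25.2% of all genes tested rose. The median slope of the members was -0.023 log2 units per day, beside 0.0020 over all genes, and their median range over the 9 arrays was 0.91 log2 units, beside 1.03.

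**Figure D1:**
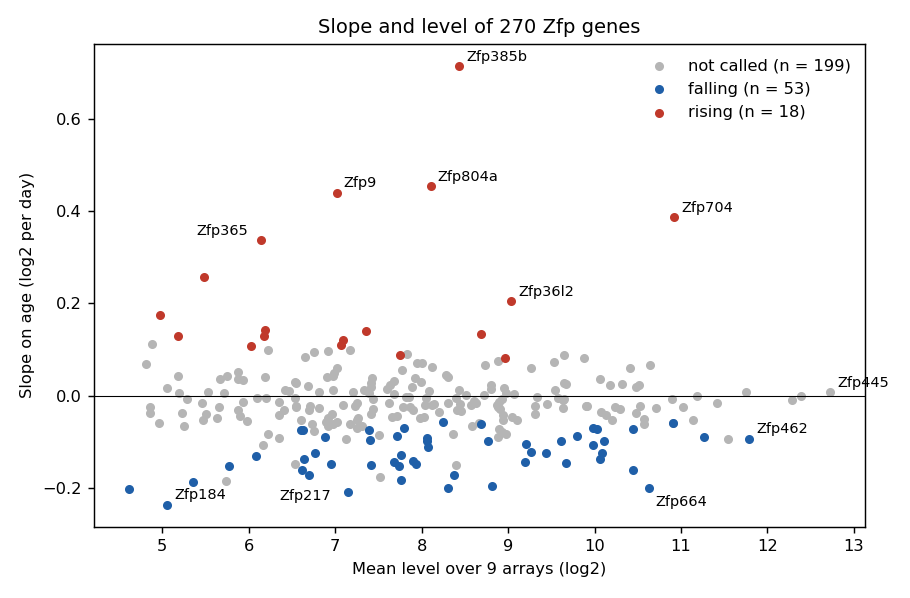
Slope on age (log2 units per day) of each of the 270 Zfp genes against its mean log2 level over the 9 arrays, coloured by the call of the linear fit. The 18 rising genes reach a slope of 0.71, the 53 falling genes lie between -0.24 and -0.058, and the 199 others surround 0 at every level.

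The members that a test on age did not touch included the most abundant ones. Zfp445, a KRAB protein that guards imprinted genes, had the highest mean level and read between 12.43 and 13.01. Zfp871 read between 12.20 and 12.78, and Zfp266 between 11.93 and 12.71. These 3 genes moved by less than 1 log2 unit over the course. The smallest ranges of all members were those of Zfp958 (0.24), Zfp287 (0.26) and Zfp612 (0.29). Over all tests used here 198 members had no call. Of these, 134 spanned less than 1 log2 unit and 64 spanned 1 unit or more, so that having no call is not the same as being flat.

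The blocks at both ends of the course, without a model, gave the same picture. All 3 readings of E17 to P0 lay above all 3 readings of E11 to E13 in 26 members (9.63%), as in 25.7% of all genes. They lay below them in 75 members (27.8%), as in 26.8% of all genes.

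The sequences around the start sites are shown for the 2 steepest rises, Zfp385b and Zfp804a, and for 2 of the falls, Zfp664 and Zfp184, because their courses are described next. They are from RefSeq (GRCm38.p6), run 5′ to 3′ on the gene's strand from upstream of the start to just past it, and were the entry listed first for each gene. Capitals mark matches on either strand to GC boxes (GGGCGG), the NRF1 motif or an ETS motif (CCGGAAG). In Zfp664 a pair of NRF1 matches overlap, 1 on each strand, and are capitalised as 1 run.
Zfp385b, chr2:77519617-77519916, minus strand: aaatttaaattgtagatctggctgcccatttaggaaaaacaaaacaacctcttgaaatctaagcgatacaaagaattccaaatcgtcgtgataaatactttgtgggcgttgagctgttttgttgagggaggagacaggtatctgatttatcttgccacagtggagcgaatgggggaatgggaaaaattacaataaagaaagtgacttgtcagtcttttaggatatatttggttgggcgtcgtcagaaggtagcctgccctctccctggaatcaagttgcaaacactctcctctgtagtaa
Zfp804a, chr2:82053408-82053707, plus strand: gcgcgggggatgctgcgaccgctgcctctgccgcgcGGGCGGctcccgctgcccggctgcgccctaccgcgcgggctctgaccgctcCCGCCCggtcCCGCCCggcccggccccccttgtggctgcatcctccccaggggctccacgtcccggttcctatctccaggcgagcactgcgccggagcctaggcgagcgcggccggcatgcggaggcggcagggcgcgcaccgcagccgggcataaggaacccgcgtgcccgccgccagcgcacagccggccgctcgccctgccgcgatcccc
Zfp664, chr5:124862455-124862754, plus strand: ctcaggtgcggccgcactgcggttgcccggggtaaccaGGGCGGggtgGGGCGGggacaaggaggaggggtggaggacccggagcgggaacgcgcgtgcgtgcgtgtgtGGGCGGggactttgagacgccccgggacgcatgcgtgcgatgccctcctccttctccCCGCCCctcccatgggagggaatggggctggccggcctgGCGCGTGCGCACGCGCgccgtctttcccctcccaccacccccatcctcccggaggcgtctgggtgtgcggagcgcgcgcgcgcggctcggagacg
Zfp184, chr13:21944844-21945143, plus strand: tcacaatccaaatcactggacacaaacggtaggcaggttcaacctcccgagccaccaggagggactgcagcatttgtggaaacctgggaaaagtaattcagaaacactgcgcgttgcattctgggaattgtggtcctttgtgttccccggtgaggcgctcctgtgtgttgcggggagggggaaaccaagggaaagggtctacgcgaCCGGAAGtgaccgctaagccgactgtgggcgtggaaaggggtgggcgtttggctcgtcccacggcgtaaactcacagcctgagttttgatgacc

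Zfp385b and Zfp804a, whose levels stepped up in the same day, had 7 and 45 CpG dinucleotides and a GC content of 41.0% and 79.3% in these windows. Zfp664 and Zfp184 had 39 and 17 CpG. A GC box was found in 50.0% of the 222 members with an entry, beside 35.9% of all 27025 genes of the table and 67.1% of the 8833 tested genes that had one. The ETS motif was found in 20.3% of the members, beside 9.12% of all genes and 18.7% of tested genes, and the NRF1 motif in 10.4%, beside 4.78% and 11.3%. By course, the NRF1 motif was found in 7 of the 40 falling, 0 of the 14 rising and 16 of the 168 other members with an entry. The E box CAGCTG was found in 4, 5 and 30, beside 16.1% of all genes and 14.5% of tested genes. The GC box was found in 24, 7 and 80, and the ETS motif in 7, 4 and 34. Other motifs scanned (CCAAT, TATA, E2F and RE1) are not shown by course, and no difference between courses was tested. Zfp385b has 4 entries in the table and Zfp184 has 2, so that other start sites may give other counts, and a match is no proof of a site.

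Among the levels themselves, the steepest rise belonged to Zfp385b, a relative of the RNA-binding protein Zfp385a. Zfp385b read 3.57 at E11, 5.87 at E12, 8.58 at E13, 8.72 at E14, 9.50 at E15, 9.54 at E16, 9.65 at E17, 10.17 at E18 and 10.32 at P0. It was near the bottom of the scale on the E11 array and among the higher Zfp levels from E15 on, and its early and late readings did not overlap. The slope was 0.71 ± 0.13 log2 units per day (slope ± SE over 9 arrays, adjusted p = 0.00142), and P0 was at least 39.9-fold above E11, where the reading was under 5 and was set to 5.

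Zfp804a, the mouse counterpart of a gene known from human psychiatric genetics, rose in the same days and then stopped. It read 4.72 at E11, 5.91 at E12, 8.52 at E13, 8.64 at E14, 9.17 at E15, 9.17 at E16, 8.91 at E17, 9.02 at E18 and 8.87 at P0. The low readings were those of E11 and E12, and from E13 on every reading lay within 0.65 log2 units. Its slope was 0.45 ± 0.12 (adjusted p = 0.0107), and over the arrays of E13 to P0 it was 0.056 (0.360).

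Zfp9 rose from E11 to E12 and had its largest step a day later than Zfp385b and Zfp804a. It read 4.15 at E11, 6.06 at E12, 5.49 at E13 and 7.69 at E14, and between 7.51 and 8.24 from then on. Every reading from E14 on was above the 3 earlier ones, and the step from E13 to E14 was 2.20 log2 units. Its slope was 0.44 ± 0.092 (adjusted p = 0.00323), and P0 was at least 7.81-fold above E11.

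Zfp704 was the only strongly rising member that was abundant from the start. It read 8.69 at E11, 9.61 at E12, 10.62 at E13, 10.74 at E14, 11.41 at E15, 11.60 at E16, 11.61 at E17, 12.00 at E18 and 11.98 at P0. The readings climbed with hardly an exception, most steeply up to E13, and P0 was 9.76-fold above E11 (slope 0.39 ± 0.048, adjusted p = 0.000173). A lower-reading probe set of Zfp704 had a slope of 0.34.

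Zfp365, which encodes a partner of the scaffold protein Disc1, rose over a longer time. It read 4.21 at E11, 5.59 at E12, 5.46 at E13, 5.64 at E14, 6.34 at E15, 7.02 at E16, 6.76 at E17, 7.26 at E18 and 7.02 at P0. After a first step between E11 and E12 it stayed level to E14 and climbed again to E16. Its slope was 0.34 ± 0.049 (adjusted p = 0.000411), and P0 was at least 4.05-fold above E11.

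The other rising members changed less. Zfp36l2, a member of the family that binds AU-rich elements and speeds the decay of messenger RNA, read 8.07 at E11, 8.65 at E14, 9.47 at E15 and 9.24 at P0 (slope 0.20 ± 0.041, adjusted p = 0.00262). Zfp941 went from 4.21 at E11 to 6.50 at P0 (0.26 ± 0.048, adjusted p = 0.00179). Zfp703, a repressor of the Nlz family, went from 6.50 to 8.10 (0.14 ± 0.040, adjusted p = 0.0144). Zfp708 (0.17 ± 0.055), Zfp651 (0.14 ± 0.038), Zfp945 (0.13 ± 0.033) and Zfp874b (0.13 ± 0.047) completed the 12 largest rises, and the remaining 6 (Zfp14, Zfp3, Zfp839, Zfp709, Zfp983 and Zfp955b) had slopes of 0.13 or less. Of the 18, 13 had a fitted change of 2-fold or more over the course.

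**Figure D2:**
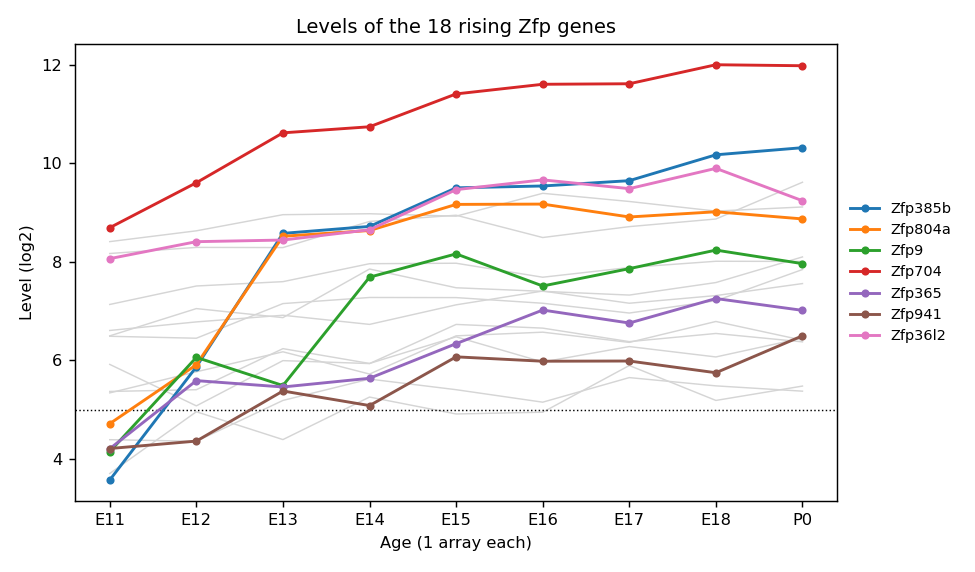
Log2 level by age (1 array each) of the 18 rising Zfp genes, the 7 of largest slope in colour and the other 11 in grey; the dotted line marks log2 5. Zfp385b and Zfp804a step up between E12 and E13, from 5.87 to 8.58 and from 5.91 to 8.52, Zfp9 between E13 and E14, and Zfp704 and Zfp365 climb over several days.

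Most rising members were past the middle of their change by E15. The midpoint of a gene was taken between its E11-E12 mean and its E18-P0 mean. By E13, 6 of the 18 rising members (33.3%) had passed it and stayed past it, beside 31.3% of all rising genes. By E14 10 had done so, and by E15 16 (88.9%). The same held for 77.4% of all rising genes by E15. An even climb would also pass this midpoint near E15. Zfp945 and Zfp3 stayed past it only from E18, after crossing it earlier and dropping back. Zfp3 read 7.15 at E13, 7.28 at E14, 7.16 at E16, 6.96 at E17 and 7.21 at E18. Zfp945 read 8.82 at E14, 8.95 at E15, 8.49 at E16, 8.72 at E17 and 8.87 at E18. The largest step between consecutive arrays was that from E12 to E13 in 8 of the 18, and the share of all rising genes with this step is not given here. With the E11 array left out 9 of the 270 members rose, 8 of them among the 18, beside 2218 of all 10864 genes. The calls of Zfp804a (adjusted p = 0.0699), Zfp708 (0.140), Zfp651 (0.0633) and Zfp703 (0.0828) then ended, the last also without P0 (0.0702). From E13 to P0 alone, 3 of the 270 members rose, Zfp385b (0.30 ± 0.034), Zfp365 (0.30 ± 0.057) and Zfp704 (0.24 ± 0.032), beside 1525 of 10864 genes (14.0%).

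Some of the weaker rises rested on the choice of probe set or on readings near the floor. Another probe set of Zfp945 fell from 10.10 at E11 to 4.49 at P0, and with the mean of its probe sets the slope was -0.090 (adjusted p = 0.137). Its call also ended without the P0 array (adjusted p = 0.0528). Another probe set of Zfp955b had a slope of -0.047. The call of Zfp708 ended with values under 5 set to 5 (adjusted p = 0.123), as did that of Zfp874b (0.121). The Zfp874b call ended under 13 of 19 alternatives.

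Markers of maturing cells moved on the same arrays as these rises. Of 13 neuron markers tested 11 rose, and their summed level, the log2 of the sum of their linear levels, was 15.03 to 15.98 at E11 to E13 and 16.19 to 16.30 at E17 to P0. All 9 tested markers of astrocytes and ensheathing glia rose (9.26 to 11.17, then 13.48 to 14.03, Gfap under the filter), as did 5 of 6 of the oligodendrocyte lineage. Of 10 markers of meninges and mesenchyme 9 rose (11.47 to 12.47, then 14.82 to 15.10), as did all 7 tested of microglia (8.88 to 10.00, then 11.49 to 11.66, Aif1 under the filter). Of 4 endothelial markers 2 rose (9.24 to 9.98, then 11.05 to 11.12), while Pecam1, Cdh5 and Emcn did not pass the filter. Of the olfactory sensory neuron markers 3 of 4 rose, with Omp and Cnga2 under the filter. Their part in the rise of the Zfp genes was not tested, and in whole tissue a change in the share of a cell type and a change in RNA per cell cannot be told apart.

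The falls were shallower and steadier than the largest rises. Zfp664 had the smallest p of all members. It read 11.50 at E11, 11.34 at E12, 10.95 at E13, 10.70 at E14, 10.46 at E15, 10.52 at E16, 10.21 at E17, 10.02 at E18 and 9.92 at P0. Apart from E16 each array was below the one before it, and the slope was -0.20 ± 0.018 (adjusted p = 2.90e-05), and P0 lay 1.58 log2 units below E11.

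Zfp41 went down in the same way. It read 9.54 at E11, 9.48 at E12, 9.28 at E13, 9.07 at E14, 8.70 at E15, 8.61 at E16, 8.26 at E17, 8.13 at E18 and 8.25 at P0. Only P0 was above the array before it (slope -0.20 ± 0.021, adjusted p = 8.29e-05).

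Zfp217, which works with the CoREST and Lsd1 corepressors, had its main step between E12 and E13. It read 8.02 at E11, 8.19 at E12, 7.21 at E13, 7.30 at E14, 6.95 at E15, 6.94 at E16, 6.65 at E17, 6.60 at E18 and 6.44 at P0. The E11 and E12 arrays stood well above the others, and a slow decline followed (slope -0.21 ± 0.031, adjusted p = 0.000506).

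Zfp184, another KRAB gene, had the steepest fall, -0.24 ± 0.042 (adjusted p = 0.00138). It read 6.34 at E11, 5.74 at E12, 5.30 at E13 and 5.54 at E14, and between 4.37 and 4.80 from E15 on. It therefore dropped under log2 5 at E15 and stayed there, and P0 was at least 2.53-fold below E11. Zfp599 went from 5.40 at E11 to 3.80 at P0, and its call ended with values under 5 set to 5 (adjusted p = 0.133).

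The remaining steep falls were those of Zfp367 (-0.20 ± 0.051), Zfp646 (-0.19 ± 0.049), Zfp219, a partner of Sox9 (-0.18 ± 0.025), Zfp105 (-0.17 ± 0.032), Zfp944 (-0.17 ± 0.048), Zfp521 (-0.16 ± 0.028) and Zfp454 (-0.16 ± 0.031). Zfp367 and Zfp944 read 9.56 and 8.07 at E11 against 8.12 and 6.76 at E12, and both calls ended without the E11 array (adjusted p = 0.0631 and 0.0868). That of Zfp944 also ended without P0 (0.0593). The 53 falls had a median slope of -0.12, and 25 of them amounted to a fitted 2-fold change or more.

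**Figure D3:**
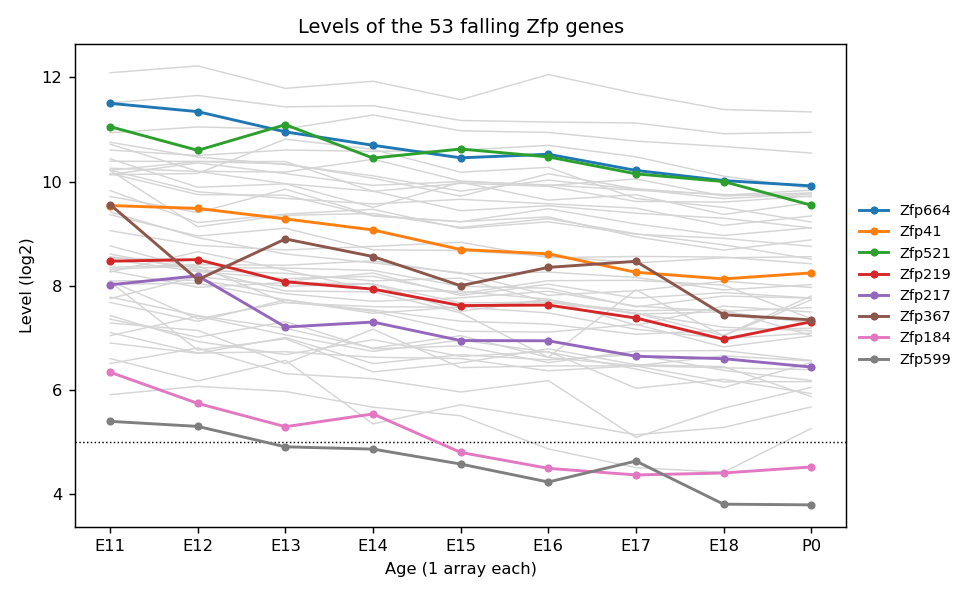
Log2 level by age (1 array each) of the 53 falling Zfp genes, 8 of them in colour and the other 45 in grey; the dotted line marks log2 5. Zfp664 and Zfp41 decline almost evenly, from 11.50 to 9.92 and from 9.54 to 8.25, while Zfp184 falls under log2 5 at E15.

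The falling members passed their midpoint over a wide span of ages. By E13 3 of the 53 had done so, by E14 14, by E15 27 (50.9%), by E16 34 and by E17 48 (90.6%). Among all falling genes 59.3% had passed it by E15 and 91.6% by E17. Zfp521, Zfp454, Zfp462 and Zfp811 were among the 14 that stayed past it from E17 on, although Zfp462 had been past it at E15. From E13 to P0 alone 33 of the 270 members fell, beside 1219 of 10864 genes (11.2%), a similar share. Of the 33, 23 were among the 53 and 10 had no call over the whole course. Each of those 10 read higher at E13 than at E11, by 0.13 log2 units or more, Zfp458 and Zfp82 among them.

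**Figure D4:**
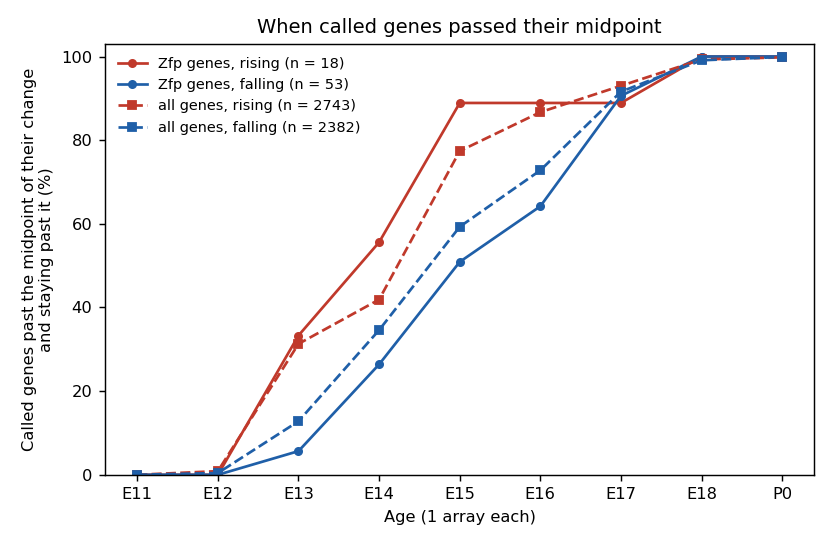
Share (%) of called genes that had passed the midpoint between their E11-E12 mean and their E18-P0 mean, and stayed past it, by each age; solid lines are Zfp genes, dashed lines all genes, red rising and blue falling. By E15 the share is 88.9% for rising and 50.9% for falling Zfp genes.

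Genes of dividing cells fell on the same arrays. All 11 tested markers of cycling cells fell, and their summed level was 14.93 to 15.86 at E11 to E13 and 13.44 to 13.94 at E17 to P0. Of 10 markers of neural progenitors 9 fell, with a median level over the list of 11.45 at E11 and 8.49 at P0. Their summed level (15.86 to 16.03, then 15.78 to 15.84) was carried by Fabp7, the marker that rose, which read 14.46 at E11 and 15.34 at P0. Of 4 tested red cell markers 3 fell (15.04 to 16.23, then 7.17 to 8.62, Klf1 and Gata1 under the filter). These 3 were the globin genes Hba-x, Hbb-y and Hbb-bh1, while the slope of Alas2 did not pass (adjusted p = 0.306). Of 3 tested markers of cartilage and bone 2 fell, Col2a1 and Sox9 (9.54 to 11.42, then 8.61 to 9.06, Acan and Matn1 under the filter). This sum was carried mostly by Sox9, which read 9.92 at E11 and 8.53 at P0. The slope of Col9a1 did not pass (adjusted p = 0.169). The part of all these markers in the fall of the Zfp genes was not tested.

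Few members moved away from their early level and came back. A quadratic term passed the test in 5 members (1.85%), beside 6.86% of all genes, and in 4 of them the fitted turning point lay between E12 and E18, a peak, as in 4.96% of all genes. No member had a dip by limma, beside 1.26% of all genes, and 26 members (9.63%) had a quadratic term with an unadjusted p under 0.05, beside 22.1% of all genes. In Zfp804a the term described the early rise and later plateau given above. In Zfp385b and Zfp704 it described a rise that was steepest up to E13 and went on more slowly to P0. The turning point of Zfp704 lay beyond E18.

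The other members with a peak were Zfp811 and Zfp451. Zfp811 read 10.13 at E11, 10.16 at E12, 10.81 at E13, 10.62 at E14, 10.18 at E15, 10.27 at E16, 9.67 at E17, 9.50 at E18 and 9.22 at P0. It was highest at E13 and E14 and lowest at the end (adjusted p = 0.0475 for the term). Its other probe set climbed from 7.62 at E11 to 8.63 at E13 and stood at 7.52 at P0. From E13 to P0 alone its slope was -0.27 ± 0.028 log2 units per day (adjusted p = 0.000501).

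Zfp451, which encodes a ligase of the Sumo pathway, was the only member with a peak and no linear trend. It read 9.56 at E11, 9.62 at E12, 10.29 at E13, 10.48 at E14, 10.10 at E15, 10.28 at E16, 10.46 at E17, 10.06 at E18 and 9.75 at P0. E11, E12 and P0 were the lowest arrays (adjusted p = 0.0369, peak of 0.75 log2 units). All of these were female by their Xist level, as was E15, and the other arrays were male. With embryo sex in the limma fit the peak of Zfp451 was 0.50 log2 units (adjusted p = 0.217). Another of its probe sets had a slope of -0.11. All 4 peaks ended without the E11 array, with adjusted p between 0.0626 and 0.210, and with embryo sex in the fit. Those of Zfp811 and Zfp451 also ended without the E14, E16, E18 or P0 array.

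Blocks of 3 consecutive arrays gave few calls. Between E11-E13 and E14-E16, Zfp9 rose, and Zfp41, Zfp664, Zfp213 and Zfp618 fell, 0.370% and 1.48% of the members, beside 4.17% and 2.31% of all genes. Zfp9 averaged 5.23 in the first block and 7.79 in the next (difference 2.55 ± 0.43, adjusted p = 0.0312). Zfp618 read 10.39, 10.39 and 10.38 in the first block and 9.81, 9.97 and 9.91 in the next, a step between E13 and E14 (difference -0.49 ± 0.11, adjusted p = 0.0437). Zfp213 stepped down at the same point, from 6.57 to 5.35. All 5 calls ended without the E11, E12, E15, E16, E17, E18 or P0 array, and without E13 13 members rose and 18 fell. The share of all genes called without E13 is not given here.

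No member differed between E14-E16 and E17-P0 by limma at an adjusted p under 0.05, beside 0.0828% of all genes higher and 0% lower. At an unadjusted p under 0.05, 1 member (0.370%) was higher and 21 (7.78%) were lower in E17-P0, beside 5.63% and 7.37% of all genes.

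Of 13 tested members with known roles in neural development, 3 rose (Zfp804a, Zfp365 and Zfp703), 4 fell and 6 did not pass. Over all genes 25.2% rose and 21.9% fell. Zfp521 and Zfp423, paired relatives that bind Ebf factors, both fell. Zfp521 read 11.05 at E11, 10.60 at E12, 11.09 at E13, 10.45 at E14, 10.63 at E15, 10.47 at E16, 10.15 at E17, 10.00 at E18 and 9.55 at P0. Its decline was clearest after E15 (adjusted p = 0.00122), and its other probe set had a slope of -0.27.

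Zfp423 read 8.76 at E11, 8.32 at E12, 7.90 at E13, 7.88 at E14, 7.48 at E15, 6.63 at E16, 7.92 at E17, 7.04 at E18 and 7.73 at P0. The E16 array was the lowest and early and late readings overlapped. Its slope of -0.15 ± 0.058 was just past the threshold (adjusted p = 0.0498), and the call ended under 15 of 20 alternatives. Zfp536, a repressor of neuronal differentiation, went from 8.03 at E11 to 7.04 at P0 (-0.15 ± 0.027, adjusted p = 0.00147), and Zfp462, a large chromatin-associated protein, from 12.09 to 11.34 (-0.093 ± 0.024, adjusted p = 0.00969). Zfp335, needed for progenitor division, was nearly constant between 6.38 and 6.69. Zfp503, the relative of Zfp703, read 6.48 to 7.68, Zfp711, tied to X-linked intellectual disability, 10.91 to 11.38, Zfp24 10.01 to 10.91, Zfp292 10.49 to 11.20 and Zfp407 8.34 to 8.98.

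Among members that act on RNA or ribosomes, 2 of 11 tested rose (Zfp385b and Zfp36l2), 1 fell and 8 did not pass, where 25.2% of all genes rose and 21.9% fell. Zfp598, which marks collided ribosomes, fell (-0.069 ± 0.022, adjusted p = 0.0241), a call that ended without the E11, E12 or E18 array (highest adjusted p = 0.0730). Zfp36l1, the close relative of Zfp36l2, read 12.23 at E11, 12.24 at E12, 11.35 at E13, 11.12 at E14, 11.14 at E15, 11.68 at E16, 11.43 at E17, 11.36 at E18 and 11.31 at P0. It was highest at E11 and E12, where Zfp36l2 was lowest, but its slope did not pass (adjusted p = 0.0842). Zfp385a, the relative of Zfp385b, read 6.38 to 7.66 and did not pass (adjusted p = 0.0590). Zfp106, Zfp346, Zfp638, Zfp326, Zfp622 and Zfp318 did not pass either, and Zfp36 and Zfp385c were under the filter. A lower-reading probe set of Zfp106 fell, however, from 8.33 at E11 to 6.24 at P0, with a slope of -0.25.

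Of 6 tested members known to silence imprinted genes or retroelements, 1 rose (Zfp708), 1 fell and 4 did not pass, while 47.2% of all genes had a trend in either direction. Zfp568, a repressor of a placental transcript of Igf2, fell from 7.78 at E11 to 6.56 at P0 (-0.15 ± 0.030, adjusted p = 0.00258). Zfp809, which silences retroviruses, read 8.08 to 8.87, and Zfp932 8.57 to 9.07. Zfp57 and Zfp42, genes of the early embryo and of imprint control, and Zfp819 did not pass the filter.

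Of 13 tested members of chromatin complexes and mitosis, 0 rose, 5 fell and 8 did not pass, beside 25.2% of all genes rising and 21.9% falling. Those that fell were Zfp217, Zfp219, Zfp532 (-0.14 ± 0.018, adjusted p = 0.000183), Zfp687 (-0.13 ± 0.046, adjusted p = 0.0392) and Zfp384 (-0.069 ± 0.018, adjusted p = 0.00945). Zfp532 and Zfp687 form a complex with Zfp592, which stayed between 7.13 and 7.44. The Zfp687 call ended under 10 of 20 alternatives. Zfp207, a spindle and kinetochore protein, was abundant (11.07 to 12.18) and had no trend.

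Of 20 tested genes listed for KRAB repression, 12 fell, 2 rose and 6 did not pass. The list holds corepressors and also general chromatin and replication genes that KRAB proteins need not recruit. Over all genes 21.9% fell and 25.2% rose, and over the Zfp genes 19.6% and 6.67%. Trim28 read 12.25 at E11 and 11.21 at P0 (-0.15 ± 0.021, adjusted p = 0.000310), Setdb1 9.59 and 8.44, and the HP1 gene Cbx5 11.55 and 10.42 (-0.15 ± 0.015, adjusted p = 4.54e-05). The maintenance methylation genes Uhrf1 (-0.41 ± 0.035) and Dnmt1 (-0.18 ± 0.029), which also serve DNA replication, fell. The methyltransferase Dnmt3a (0.13 ± 0.025) and the remodeller Chd3 (0.14 ± 0.033) rose, while their relatives Dnmt3b (-0.29 ± 0.047) and Chd4 (-0.12 ± 0.027) fell. Whether the share that fell differs between the listed genes and the Zfp genes was not tested.

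Some of the movement of members lay on single arrays. Over all 270 members, with or without a trend, the E16 array held the highest reading of 50 (18.5%), beside 12.1% of all genes. The E18 array held the lowest of 62 (23.0%), beside 13.3%, and these included falling members such as Zfp41. E16 was not alone in holding many highest readings, as the E13 array was highest in 39 members (14.4%), beside 8.26% of all genes. Zfp937 read 7.25 at E11, 7.25 at E12, 7.18 at E13, 7.32 at E14, 7.18 at E15, 8.67 at E16, 7.40 at E17, 7.16 at E18 and 7.27 at P0. It was flat on 8 arrays and high at E16 alone. The E16 reading exceeded the mean of E15 and E17 by 1.38 in Zfp937, 1.15 in Zfp748, 1.11 in Zfp182, 1.11 in Zfp458, 1.08 in Zfp994 and 1.07 in Zfp119b. It did so by more than 0.5 in 19 members (7.04%), beside 4.15% of all genes, and 18 of the 19 had no call by any test. The E17 array exceeded the mean of E16 and E18 by as much in 18 members (6.67%), beside 3.61% of all genes. The E16 array read actin 1.80 log2 units higher at the end of the transcript than at its start, a measure of RNA integrity that ran from 1.48 to 1.90 over the arrays, and its embryo was male by its Xist level, like those of E13, E14, E17 and E18. With 1 array per age these readings have no replicate.

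**Figure D5:**
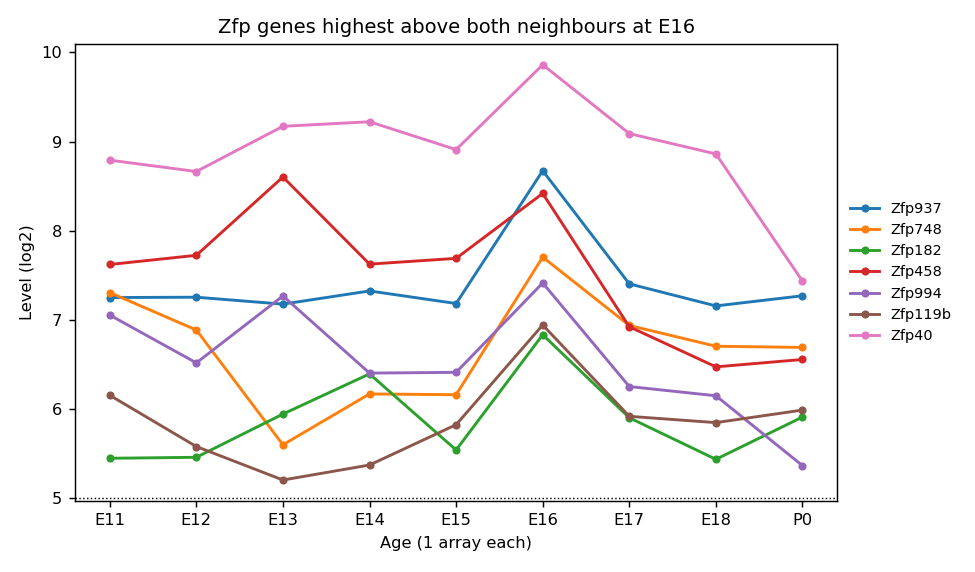
Log2 level by age (1 array each) of the 7 Zfp genes whose E16 reading exceeded the mean of E15 and E17 by the most; the dotted line marks log2 5. Zfp937 reads 8.67 at E16 and between 7.16 and 7.40 on the other arrays, and Zfp458 and Zfp994 are also high at E13.

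In the RefSeq gene order of GRCm38.p6, 268 members were found, and 133 of them (49.6%) had another Zfp gene as the next protein-coding gene. Of the members with such a neighbour 5.26% rose and 21.1% fell, and of the 135 without one 8.15% rose and 18.5% fell. The members formed 70 adjacent pairs, of which 39 had no linear trend in either gene, 28 in 1 and 3 in both. Of the last, Zfp236 and Zfp516 both fell, Zfp617 and Zfp961 both fell, and Zfp568 fell beside Zfp14, which rose.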

How the data were processed

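RNA of 9 olfactory bulbs was amplified in 2 rounds and hybridised to Affymetrix whole-genome mouse arrays, per the labels' protocols. The deposited values are log2 signals made by the authors with GCRMA, whose version is not given in the sources used here. Of 45101 probe sets, control probe sets and those with several symbols or none were left out, and the probe set of highest mean was kept per gene. A gene entered the tests with log2 5 or more on at least 2 arrays. limma 3.58.1 in R 4.3.3 fitted a slope on age (P0 as day 19), a quadratic term and contrasts of 3 blocks (E11-E13, E14-E16, E17-P0), with a variance trend and Benjamini-Hochberg adjustment over 10864 genes at 0.05. The script was tested on simulated data. A fold against a reading under 5 uses 5 and is a lower bound. A peak needed a turning point between E12 and E18. Each p measures scatter around a trend over ages, as no age has a replicate, and the number of arrays limits the precision.

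The text names the 12 largest rises and 12 largest falls past the threshold, up to 8 peaks or dips, up to 6 block differences each way, the 3 highest levels, the 3 smallest ranges and members of the role lists; E16 genes, members called only from E13 on and neighbour pairs were named after their values were seen. The members and lists were chosen with earlier results of these data known. Alternatives varied the filter, normalization, floor, probe set, sex, variance trend, age scale and arrays. Promoters and gene order came from RefSeq (GRCm38.p6); protein sequences were not used here.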

Additional observations from a re-analysis of the deposited data

How the results depend on the processing

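With 1 array left out in turn, 9 to 21 members rose and 40 to 54 fell, 0 to 5 had a peak and 0 to 0 a dip, 0 to 13 were higher and 0 to 18 lower in E14-E16 than in E11-E13, and 0 to 0 differed between E14-E16 and E17-P0. Over all 10864 genes the same runs gave 2218 to 2764 rising and 1803 to 2335 falling. Rising members were fewest, 9, without E11, and falling members fewest, 40, without E18, where 2218 of all genes rose and 1994 fell. From E13 to P0 alone 3 rose and 33 fell. Without a filter there were 2 peaks and 1 dip, and 0 higher and 0 lower members in E14-E16. With embryo sex in the fit there were 0 peaks, 0 higher and 0 lower. With no variance trend there were 2 peaks and 1 lower. The mean of all probe sets and P0 at day 20 each gave 1 dip. The cause of these differences was not tested. Of 35 named slopes, 11 kept their call under every alternative run (Zfp385b, Zfp704, Zfp365, Zfp184, Zfp217, Zfp664, Zfp41, Zfp219, Zfp521, Zfp454 and Zfp532) and 24 changed under at least 1, of which 10 were lost with an exact rank correlation. The slope of Zfp945 reversed to -0.090 with the mean of all probe sets. No paired analysis was possible because each age has 1 array, so the replicate block was not run. Of the 71 members with a trend, Zfp385b, Zfp804a, Zfp9, Zfp365, Zfp941, Zfp708, Zfp874b, Zfp184, Zfp599 and Zfp646 have at least 1 reading under log2 5, and with such readings set to 5 the calls of Zfp708, Zfp874b and Zfp599 ended.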
